A study of Mus musculus with 12 samples.

Results

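Tight junctions seal the cleft between neighbouring cells, and in brain capillaries they are the structure that stops most solutes from passing between endothelial cells. Claudins form the sealing strands, occludin and the tricellular proteins join them, junctional adhesion molecules (JAMs) sit beside the strands, and zonula occludens (ZO) proteins tie all of them to the actin skeleton. The 9 genes examined here were chosen by name from these classes: Cldn1, Cldn5, Cldn12, Ocln, Tjp1, F11r, Jam2, Jam3, and Lsr. They were matched to mouse Ensembl identifiers, are 9 of the 54119 genes with summed counts, and all 9 were among the 19150 genes that passed the filter on low counts.

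RNA was sequenced from cerebral vessels isolated from wild type C57BL6 mice aged 2-3 months, in 4 groups of 3 libraries. The mice received PBS, or LPS, a bacterial cell wall product, intraperitoneally at 10 mg/kg for 15 min, 30 min, or 4 h. Each library pooled the vessels of 1 male and 1 female mouse, so a group drew on 6 mice. The p-values measure the spread between libraries, and whether those of a group shared material or a preparation was not tested. When the PBS mice were killed was not given in the sources used here, and isolated vessels hold mural, perivascular, and blood cells besides endothelium.

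The libraries held 18309177 to 25882028 estimated fragments each. Levels are given as CPM, fragments in proportion to the library total after scaling by TMM factors, which averaged 1.17 in PBS, 1.15 at 15 min, 1.04 at 30 min, and 0.717 at 4 h. Genes are described as called where edgeR found them past a limit of 1.5-fold, 0.58 in log2 units, at an adjusted p below 0.05 over all genes tested. All comparisons with PBS share the same PBS libraries. With 3 libraries against 3, an exact two-sided permutation test of a single gene cannot go below p = 0.1, and the calls draw on a spread estimated across genes.

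The markers of most cell types moved with the groups, and their part in the results below was not tested. Over all genes tested, 4.25% were called at 15 min, 4.62% at 30 min, and 33% at 4 h (19.1% higher and 13.9% lower). Of 7 pericyte markers 1 was called, lower at 4 h, with sums of 3390.5 to 3498.6 CPM against 3649.8 to 3724.5 CPM in PBS. Of 6 oligodendrocyte markers 2 were lower at 4 h (499 to 512 CPM against 426 to 442 CPM in sum). Of the 12 endothelial markers, 1 was called higher and 1 lower at 15 min, and likewise at 30 min. Their summed level went from between 11021 and 11269 CPM in PBS to 11890 to 11988 CPM at 15 min and 12557 to 12642 CPM at 30 min. Their median log2 fold changes at these times were -0.11 and -0.22. At 4 h 7 were called lower and 1 higher, and the sum was between 7662 and 7738 CPM. The 6 choroid plexus markers, led by Ttr, summed to 10498 to 10938 CPM in PBS, 13849 to 14190 CPM at 30 min, and 17637 to 18525 CPM at 4 h, where 3 were called higher. The 5 neutrophil markers summed to 1.95 to 2.56 CPM in PBS and 158 to 165 CPM at 4 h, where all 3 that could be tested were called higher. The 6 skeletal muscle markers reached 155 to 168 CPM at 30 min against 10.3 to 15.5 CPM in PBS, all 6 called. The 11 markers of other epithelium summed to 56.6 to 64.7 CPM at 15 min against 29.8 to 37.7 CPM in PBS. Of 8 tested, 4 were called higher there and 3 at 4 h, where the sum was 61.4 to 64.5 CPM. The genes behind these sums differed. Muc5ac was at 14.4, 18.6, and 17.2 CPM in the 15 min libraries and at 0 in those of PBS and 4 h. Krt18 was at 12.2 to 17.9 CPM at 15 min and 38.4 to 40.4 CPM at 4 h, against 15.1 to 17.9 CPM in PBS. Of 4 smooth muscle markers, 3 were lower at 15 min (1488 to 1508 CPM against 2346 to 2382 CPM in sum). The 3 ependymal markers went from 55.7 to 60.6 CPM in PBS to 167 to 175 CPM at 30 min and 118 to 121 CPM at 4 h, all 3 called higher at both times. Of 6 astrocyte markers, 3 were called higher at 4 h (1373 to 1431 CPM against 716.6 to 738.5 CPM in sum), and of 5 neuronal markers 2 at 15 min (479.8 to 491 CPM against 307 to 319 CPM). Of 7 fibroblast markers 2, 1, and 3 were lower in the order of the 3 times, and at 4 h 3 of 6 microglial markers were lower and 3 of 5 perivascular macrophage markers higher. The 3 erythroid markers went from 1480 to 1596 CPM in PBS to 4442 to 4649 CPM at 4 h. None of these markers was at 0 in every library. In bulk RNA, fewer cells of a type and less RNA per cell cannot be told apart.

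At 15 min and 30 min Cldn5 was the 1 member called, and it was lower. At 4 h 5 of 9 members were called: Cldn5, Ocln, and Lsr fell, while Cldn1 and F11r rose. Tjp1, Jam2, Jam3, and Cldn12 were not called at any time with TMM scaling, but each was under another scaling at 30 min or 4 h. The call of Cldn5 at 15 min was lost when the libraries were scaled by endothelial markers (-0.62, adjusted p 0.267). The share of all tested genes called was 4.25% at 15 min (0.898% lower), 4.62% at 30 min (0.815% lower), and 33% at 4 h (19.1% higher and 13.9% lower). All LPS libraries lay on 1 side of all PBS libraries for 6, 5, and 8 of the 9 members, against 49.3%, 46.7%, and 70.9% of all genes, so these counts lay near the background. Without a fold limit 5, 5, and 7 members passed, against 38.6%, 36.9%, and 68.5% of all genes. The median log2 fold change of the members was -0.10, 0.02, and -0.46, against -0.002, -0.01, and -0.01 over all genes.

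**Figure D1:**
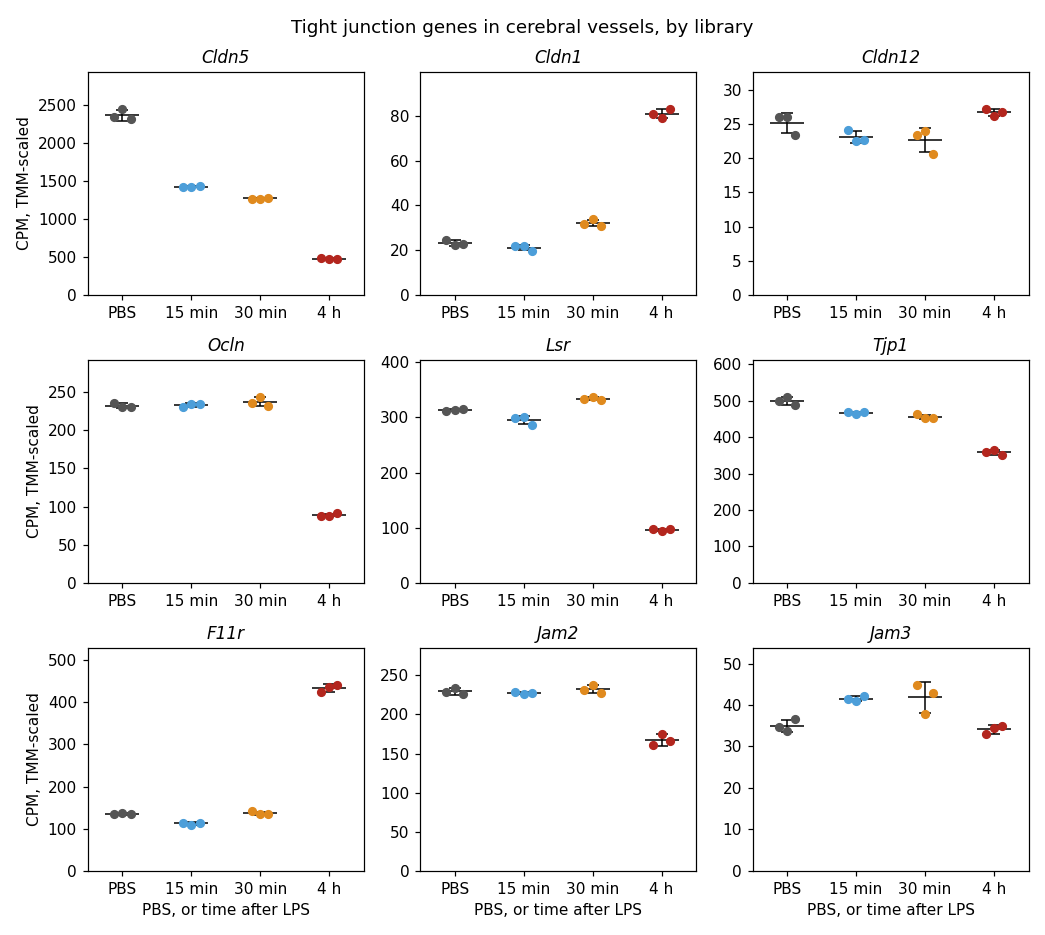
Level of each gene in CPM (vertical axes, linear from 0) in the 3 libraries of each group; the dash and bar give the mean and SD. Cldn5 was already lower at 15 min, whereas Ocln and Lsr stayed near their PBS level until 30 min and were lower at 4 h, when F11r and Cldn1 were higher.

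**Figure D2:**
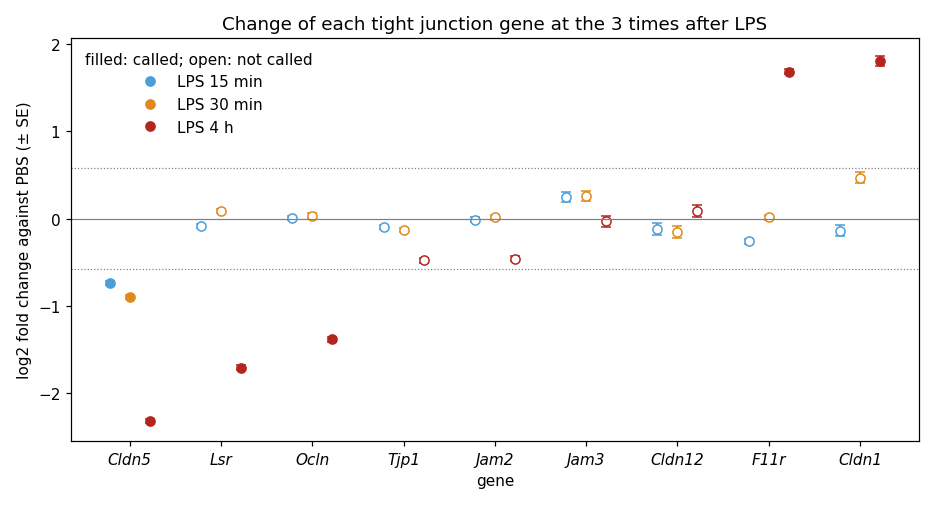
Log2 fold change against PBS (vertical axis, ± SE) of each gene at the 3 times after LPS, with filled points for called changes, open points for the rest, and dotted lines at 0.58 above and below 0. Only Cldn5 has filled points at 15 and 30 min, and 5 genes have them at 4 h.

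The sequence before the start of the gene is shown for the 5 members called at 4 h, so that the 3 that fell can be read beside the 2 that rose. These are the 250 bases before the RefSeq start (GRCm38.p6, 5′ to 3′ on the strand of the gene), with matches to any of 9 searched motifs in capitals. The window table held 7 of the 9 members, all but Jam2 and Jam3. For Ocln the window before the outermost start is shown, 1 of 2 in the table.
Cldn5 (chr16:18776597-18776846, plus strand): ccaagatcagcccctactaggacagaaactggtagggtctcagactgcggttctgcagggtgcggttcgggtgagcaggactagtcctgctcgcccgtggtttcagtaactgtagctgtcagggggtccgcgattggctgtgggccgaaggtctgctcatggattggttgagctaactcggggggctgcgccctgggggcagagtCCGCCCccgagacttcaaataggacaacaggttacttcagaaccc
Ocln (chr13:100552719-100552968, minus strand): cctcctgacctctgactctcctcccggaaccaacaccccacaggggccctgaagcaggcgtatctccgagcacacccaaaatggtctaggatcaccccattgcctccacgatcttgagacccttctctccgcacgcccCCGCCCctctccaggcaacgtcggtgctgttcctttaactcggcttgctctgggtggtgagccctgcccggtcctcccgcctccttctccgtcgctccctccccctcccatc
Lsr (chr7:30973470-30973719, minus strand): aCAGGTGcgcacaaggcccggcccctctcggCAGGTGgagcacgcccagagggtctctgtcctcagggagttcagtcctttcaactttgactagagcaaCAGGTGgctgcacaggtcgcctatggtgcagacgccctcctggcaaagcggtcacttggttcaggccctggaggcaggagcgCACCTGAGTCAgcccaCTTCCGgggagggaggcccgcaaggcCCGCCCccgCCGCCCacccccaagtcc
Cldn1 (chr16:26371840-26372089, minus strand): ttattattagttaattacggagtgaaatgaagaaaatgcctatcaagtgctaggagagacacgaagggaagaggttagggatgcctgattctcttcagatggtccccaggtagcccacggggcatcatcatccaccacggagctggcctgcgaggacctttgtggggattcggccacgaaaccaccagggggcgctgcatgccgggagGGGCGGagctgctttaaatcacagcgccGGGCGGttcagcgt
F11r (chr1:171437311-171437560, plus strand): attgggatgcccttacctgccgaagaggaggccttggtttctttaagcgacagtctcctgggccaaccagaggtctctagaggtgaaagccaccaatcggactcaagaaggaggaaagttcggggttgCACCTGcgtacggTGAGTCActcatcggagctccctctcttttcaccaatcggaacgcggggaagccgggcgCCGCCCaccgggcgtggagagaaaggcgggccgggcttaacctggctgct

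The motifs were searched on both strands and are named for the factors known to bind them. The inducible factors were NF-kB, by its consensus, AP-1, written as TGANTCA, and the cyclic AMP responsive element (CRE), written as TGACGTCA. The endothelial factors were FOXO, searched as GTAAACA, and the SOX family with its core AACAAT, besides ETS proteins with the core letters CGGAAG. The general promoter elements were the TATA box, taken as TATAAA, and the GC box, for which the letters GGGCGG were used. The repressor Snail was represented by its E-box, spelled CACCTG. All 5 windows held the letters of a GC box, as did 32.7% of 32851 windows of this length. An AP-1 match lay 109 to 103 bases before the start of F11r, which rose, and another 65 to 59 bases before the start of Lsr, which fell; 6.75% of windows had one. Lsr had 4 matches to the Snail E-box, 1 of them overlapping its AP-1 match, and F11r had 1, against 17.2% of windows with any. The other window of Ocln, before an inner start, held 2 Snail E-box matches, 213 to 208 and 68 to 63 bases before that start, and a GC box 43 to 38 bases before it. The ETS letters were matched only in the window of Lsr among the 5, 53 to 48 bases before its start, against 13.6% of windows. No window of the 5 matched the NF-kB (3.9% of windows), CRE (1.55%), FOXO (3.17%), SOX (9.42%), or TATA (12.4%) letters. A match is a run of letters and not a binding site.

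Cldn5 encodes claudin-5, the main sealing claudin of brain endothelium. It is a single-exon gene on chromosome 16 (18776847 to 18778262, plus strand, GRCm38). The PBS libraries held 2332, 2442, and 2310 CPM and the LPS 15 min libraries 1417, 1416, and 1426 CPM. At 30 min they held 1267, 1267, and 1273 CPM, and at 4 h 481, 472, and 473 CPM. No library of any group overlapped another group, and each later group lay lower. Against PBS this was a log2 fold change of -0.73 ± 0.0211 (SE) at 15 min, with an adjusted p of 1.27e-06. It was -0.90 ± 0.0212 at 30 min, with an adjusted p of 3.44e-12, and -2.31 ± 0.0224 at 4 h, with an adjusted p of 8.33e-27. Under endothelial scaling the 15 min value was -0.62 and not called (adjusted p 0.267). With TMM the level was at 60.1%, 53.7%, and 20.1% of that in PBS. Of 19150 genes, 986 had a lower log2 fold change than Cldn5 at 15 min and 367 at 4 h. From 15 to 30 min the difference was -0.16 (SE 0.0211, adjusted p 1), not past the 1.5-fold limit, though it passed without one (adjusted p 1.58e-06). From 30 min to 4 h Cldn5 fell by 1.42 on the log2 scale (SE 0.0220, adjusted p 4.89e-21), but under endothelial scaling the value was -0.50 and not called (adjusted p 1).

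Cldn5 also fell relative to other genes of the same library, where no scaling between libraries enters. Per transcript length (TPM), Cldn5 made up 96.9 to 97.0% of the summed level of the 27 annotated claudins in PBS. That share was 95.4 to 95.9% at 15 min, 93.3 to 93.4% at 30 min, and 84.0 to 84.5% at 4 h. In the same libraries the TPM of Cldn5 went from 15.9 times that of Cdh5 (VE-cadherin, the adherens junction protein of endothelium) in PBS to 11.3 times at 15 min, 10.4 times at 30 min, and 0.825 times at 4 h. Cdh5 itself was called higher at 4 h, at 1889 ± 1.93 CPM against 486 ± 6.88 CPM. Set against Flt1, an endothelial VEGF receptor that was not called, the ratio of TPM was 6.92, 4.47, 4.24, and 1.49 in the order PBS, 15 min, 30 min, and 4 h. Against Pecam1, which was called lower at 4 h, it was 7.40, 5.56, 4.46, and 3.06. By TPM Cldn5 was the 22nd most abundant of all genes in PBS and the 290th at 4 h, and in every group it was the most abundant member.

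Cldn1 encodes a claudin best known from epithelia, where it is part of the barrier of the skin. It lies on chromosome 16 (26356642 to 26371841, minus strand). The PBS libraries held 24.6, 22.2, and 22.8 CPM, those at 15 min 21.8, 21.8, and 19.8 CPM, those at 30 min 31.6, 33.9, and 31.0 CPM, and those at 4 h 80.8, 79.2, and 83.1 CPM. The 4 h libraries lay above all others, and the 30 min libraries above PBS and 15 min. In log2 units Cldn1 differed from PBS by -0.14 ± 0.0620 (SE) at 15 min and 0.47 ± 0.0602 at 30 min, neither of them called, and by 1.80 ± 0.0581 at 4 h, with an adjusted p of 8.38e-16. Without the fold limit the 30 min value passed (adjusted p 1.39e-06), but it was -0.10 when the libraries were scaled by reference genes. So did the difference of 0.61 between 30 and 15 min (SE 0.0611, adjusted p 3.53e-08). From 30 min to 4 h Cldn1 rose by 1.33 (SE 0.0571, adjusted p 5.54e-12).

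Cldn1 stayed a minor claudin per length. Its share of the claudin TPM was 0.341 to 0.388% in PBS and 5.20 to 5.65% at 4 h, and the TPM ratio of Cldn5 to Cldn1 went from 269 to 15.5. Cldn2, the claudin of choroid plexus epithelium, was at 61.2 ± 0.854 CPM in PBS and 69.4 ± 2.43 CPM at 4 h and was not called (0.18, SE 0.0428, adjusted p 1). The TPM ratio of Cldn1 to Cldn2 was 0.336 in PBS, 0.344 at 15 min, 0.313 at 30 min, and 1.05 at 4 h. Against Ttr, another gene of choroid plexus epithelium, it was 0.000714, 0.000711, 0.000747, and 0.00146 in the same order. Against Kl, also expressed there, it was 0.125, 0.155, 0.163, and 0.200. The rise of Cldn1 from PBS to 4 h was thus smaller relative to Ttr and to Kl than relative to Cldn2.

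Cldn12 encodes a widely expressed claudin. It is found on chromosome 5 (5489537 to 5514958, minus strand). Its levels were 26.0, 26.0, and 23.4 CPM in PBS, 24.1, 22.6, and 22.6 CPM at 15 min, 23.4, 24.0, and 20.6 CPM at 30 min, and 27.2, 26.2, and 26.8 CPM at 4 h. The 4 h libraries lay just above those of PBS, and all other groups overlapped PBS. The log2 fold changes were -0.12, -0.15, and 0.09, with a 95% interval at 4 h of -0.06 to 0.23. It was not called at any time with TMM scaling. With the reference genes it was called lower at 30 min (-0.72, adjusted p 0.0402) and at 4 h (-0.84, adjusted p 0.000394), and under endothelial scaling higher at 4 h (1.18, adjusted p 1.02e-08).

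Ocln encodes occludin, a membrane protein of the strands that regulates the junction more than it seals it. The gene is on chromosome 13 (100496507 to 100552718, minus strand). PBS libraries were at 236, 230.3, and 230.1 CPM, 15 min libraries at 230.5, 234, and 235 CPM, and 30 min libraries at 236, 244, and 232 CPM. At 4 h they were at 88.0, 88.0, and 91.1 CPM, below all the rest, which overlapped each other. Its log2 difference from PBS was 0.01 ± 0.0268 (SE) at 15 min and 0.03 ± 0.0269 at 30 min (95% interval -0.02 to 0.09). At 4 h it was -1.38 ± 0.0305, with an adjusted p of 7.30e-18. From 30 min to 4 h it was -1.41 (SE 0.0307, adjusted p 4.65e-18), and under endothelial scaling -0.50, not called (adjusted p 1). Its relatives are Marveld2 (tricellulin, found where 3 cells meet) and Marveld3. Ocln held 90.8 to 93.3% of their sum in PBS and 72.8 to 75.3% at 4 h, and Marveld2 4.86 to 5.85% and 19.3 to 19.4%.

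Lsr encodes angulin-1, which recruits tricellulin to tricellular contacts and is strongly expressed in brain endothelium. It lies on chromosome 7 (30957770 to 30973464, minus strand). Levels were 312, 314, and 315 CPM in PBS, 298, 301, and 287 CPM at 15 min, 333, 337, and 331 CPM at 30 min, and 97.2, 93.3, and 97.3 CPM at 4 h. Differences at the early times were small and in opposite directions: -0.09 at 15 min (SE 0.0254) and 0.09 at 30 min (SE 0.0254), neither called beyond 1.5-fold, and the signs turned under other scalings (0.03 under endothelial scaling at 15 min, -0.48 with the reference genes at 30 min). At 4 h Lsr fell by 1.71 on the log2 scale (SE 0.0290, adjusted p 5.34e-21), and against 30 min by 1.80 (SE 0.0291, adjusted p 1.70e-21). Lsr shares 946 exon bases with the antisense gene Gm4673, and the libraries do not record strand. Gm4673 was at 42.5 CPM in PBS and 11.6 CPM at 4 h, and reads of the shared bases cannot be told apart.

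The transcripts of Lsr differ by 2 cassette exons (GENCODE M21, GRCm38, minus strand, 5′ to 3′). They are shown because the estimated shares of Lsr-201, with both, and Lsr-202, with neither, did not overlap between PBS and 4 h.
Exon 4, 57 bases (chr7:30962811-30962867): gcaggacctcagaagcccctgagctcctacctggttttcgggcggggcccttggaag
Exon 5, 147 bases (chr7:30962098-30962244): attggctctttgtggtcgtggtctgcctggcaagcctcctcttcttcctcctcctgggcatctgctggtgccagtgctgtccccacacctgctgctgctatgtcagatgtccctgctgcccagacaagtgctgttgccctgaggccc
Lsr-201 contains both, Lsr-203 the longer one, and Lsr-202 neither. Both are a whole number of codons, 19 and 49, and the longer one is known to encode the membrane-spanning segment. Lsr-202 made up 23.4 to 29.4% of the TPM of Lsr in PBS, 21.1 to 24.3% at 15 min, 21.2 to 21.3% at 30 min, and 41.2 to 48.8% at 4 h. Lsr-201 made up 28.2 to 31.3%, 29.3 to 30.3%, 29.1 to 30.0%, and 10.8 to 22.2% in the same order. That the 4 h libraries overlapped no PBS library in either share is the reason for the choice and not a separate result. Lsr-203, which carries the longer exon, overlapped, with 39.2 to 48.3% in PBS and 36.6 to 44.4% at 4 h. All 3 transcripts fell, Lsr-201 by 2.65 on the log2 scale (SE 0.188, adjusted p 3.88e-06), Lsr-203 by 1.85 (SE 0.0965, adjusted p 6.46e-07), and Lsr-202 by 1.00 (SE 0.0909, adjusted p 0.000961). Neither the shares nor a difference between the falls was tested, and the uncertainty of assigning fragments to transcripts is not in these values. The shares of Tjp1-202 and Tjp1-207 also did not overlap between PBS and 4 h. How often shares separate in this way over all transcripts was not counted. Whether reads of the bases shared with Gm4673 affect the shares of Lsr transcripts was not tested.

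**Figure D3:**
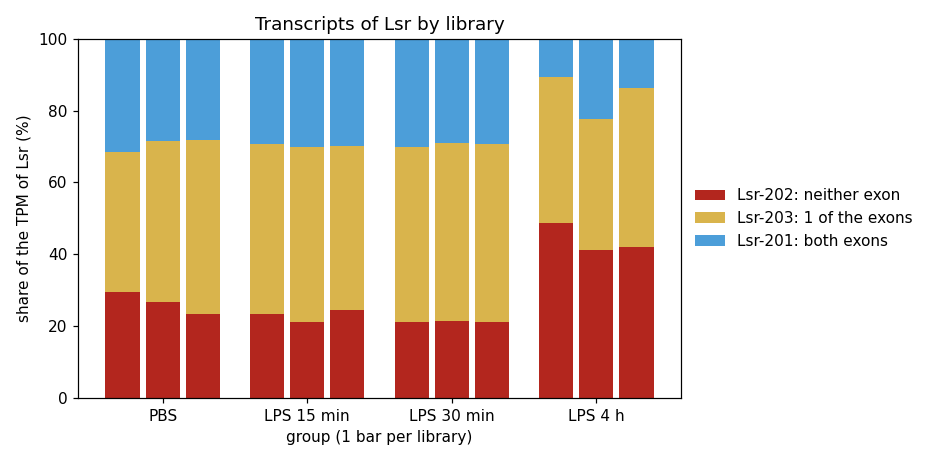
Share of the TPM of Lsr (vertical axis, percent) held by its 3 main transcripts, 1 bar per library. At 4 h the red part, Lsr-202 without either cassette exon, takes 41.2 to 48.8%, against 23.4 to 29.4% in PBS.

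The JAMs are immunoglobulin-like adhesion proteins that bind each other across the cleft and serve as counter-receptors for leukocyte integrins. F11r (JAM-A, chromosome 1, 171437535 to 171464603, plus strand) was at 134, 136, and 134 CPM in PBS and at 114, 109, and 114 CPM at 15 min. It was at 141, 134, and 134 CPM at 30 min and at 423, 437, and 441 CPM at 4 h. The 15 min libraries lay below PBS, the 30 min libraries overlapped it, and the 4 h libraries lay far above. At 15 min F11r differed from PBS by -0.26 ± 0.0304 (SE) in log2 units, which passed without the fold limit alone (adjusted p 3.15e-07). At 30 min the difference was 0.02 ± 0.0303, and at 4 h 1.69 ± 0.0296, with an adjusted p of 1.06e-20. From 30 min to 4 h F11r rose by 1.67 (SE 0.0299, adjusted p 2.15e-20).

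Jam2 (JAM-B, chromosome 16, 84774123 to 84825928, plus strand) was at 228, 234, and 226 CPM in PBS and at 160.4, 175, and 166 CPM at 4 h, with both early groups inside or near the PBS range. Its change at 4 h with TMM scaling was -0.46 (SE 0.0313, 95% interval -0.52 to -0.40), which was not called beyond 1.5-fold but was without a fold limit (adjusted p 8.05e-12). The direction for Jam2 depended on the scaling. With the library total and the reference genes it was called lower (-1.16 and -1.38), and under endothelial scaling it was called higher (0.64, adjusted p 0.0286). Jam3 (JAM-C, chromosome 9, 27097384 to 27155421, minus strand) was at 34.7, 33.6, and 36.5 CPM in PBS, 41.3, 41.1, and 42.1 CPM at 15 min, 44.8, 37.7, and 42.9 CPM at 30 min, and 33.0, 34.4, and 35.0 CPM at 4 h. Both early groups lay above PBS, by 0.25 (SE 0.0588) and 0.26 (SE 0.0595), called only without the fold limit (adjusted p 0.00168 and 0.00139), and at -0.31 with the reference genes at 30 min. At 4 h the difference was -0.03 (95% interval -0.16 to 0.09). Jam3 shares 1159 exon bases with the antisense gene Gm48796, which was at 4.82 CPM in PBS and 7.94 CPM at 15 min. Within the 3 JAMs, F11r held 49.1 to 49.8% of the TPM in PBS and 79.3 to 79.6% at 4 h, Jam2 36.5 to 37.4% and 13.6 to 14.2%, and Jam3 12.8 to 14.4% and 6.48 to 6.92%. F11r, already the most abundant JAM in PBS by TPM, thus made up most of the JAM TPM in each 4 h library.

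Tjp1 encodes ZO-1, the scaffold that links strands to actin. It spans 65296165 to 65527781 on chromosome 7 (minus strand). PBS libraries held 500.4, 510.5, and 490 CPM, those at 15 min 468, 463, and 469 CPM, those at 30 min 463, 452, and 453 CPM, and those at 4 h 360.2, 365, and 352 CPM. All LPS groups lay below PBS without overlap. The changes of -0.10 (SE 0.0237), -0.13 (SE 0.0237), and -0.48 (SE 0.0244) were with TMM scaling within the 1.5-fold limit and passed without it (adjusted p 0.00172, 0.000100, and 2.97e-14). With the reference genes they were -0.20, -0.70, and -1.40, the last 2 called beyond 1.5-fold (adjusted p 0.000298 and 4.53e-19). With the library total the 4 h value was -1.18 and also called (adjusted p 1.17e-17). Under endothelial scaling they were 0.01, 0.05, and 0.61, none of them called.

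By TPM, the order in PBS was Cldn5, Lsr, Tjp1, Ocln, F11r, Jam2, Jam3, Cldn12, and Cldn1. Means ran from 3189 to 11.9 TPM, and the pairs Ocln with F11r and Cldn12 with Cldn1 overlapped. The order at 15 min was the same, with overlap for Cldn12 and Cldn1. At 30 min Cldn1 passed Cldn12, and no neighbours overlapped. At 4 h the order was Cldn5, F11r, Tjp1, Lsr, Jam2, Ocln, Cldn1, Jam3, and Cldn12, from 344 to 8.19 TPM, again with no overlap of neighbours. F11r was in place 2 instead of 5, and Lsr and Ocln were each 2 places lower.

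Between 15 and 30 min 0 of 9 members were called by edgeR beyond 1.5-fold (4.76% of all genes), and 4 did not overlap (47.6%), with 4 called by the test without a fold limit, Cldn1, F11r, and Lsr higher and Cldn5 lower (37.4% of all genes). DESeq2 with the same fold limit also called 0. Between 30 min and 4 h 5 of 9 were called, 2 higher and 3 lower, against 28.9% of all genes (17% higher and 11.9% lower). They were the same genes, in the same directions, as at 4 h against PBS. All 9 differed without overlap (67.5%) and passed without a fold limit (65.3%). These 2 comparisons share the 4 h libraries.

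How the libraries were scaled mattered most at 4 h. Besides TMM, they were scaled by library total, by the reference genes Actb, Gapdh, and Rplp0, and by the endothelial marker list. These moved the median log2 fold change of all genes from -0.01 to -0.71, -0.93, and 1.08. The rises of Cldn1 (0.88 to 2.90) and F11r (0.76 to 2.78) and the fall of Cldn5 (-3.24 to -1.22) were called under all of them. Those of Ocln (-2.31 to -0.29) and Lsr (-2.63 to -0.62) kept their sign but were not called under endothelial scaling (adjusted p 1 and 0.0824). Tjp1 ran from -1.40 to 0.61, Jam2 from -1.38 to 0.64, Jam3 from -0.96 to 1.06, and Cldn12 from -0.84 to 1.18, so no direction can be given for these 4. Actb, Gapdh, and Rplp0 were themselves called higher at 4 h under TMM, and the endothelial markers were mostly lower. At 30 min 1 of these 3 reference genes was already called higher, at 1.18, with the lowest at 0.21 and the median at 0.31. Actb stood at 1353 to 1410 CPM in PBS and at 3135 to 3140 CPM at 30 min. That rise enters the reference gene scaling at 30 min.

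**Figure D4:**
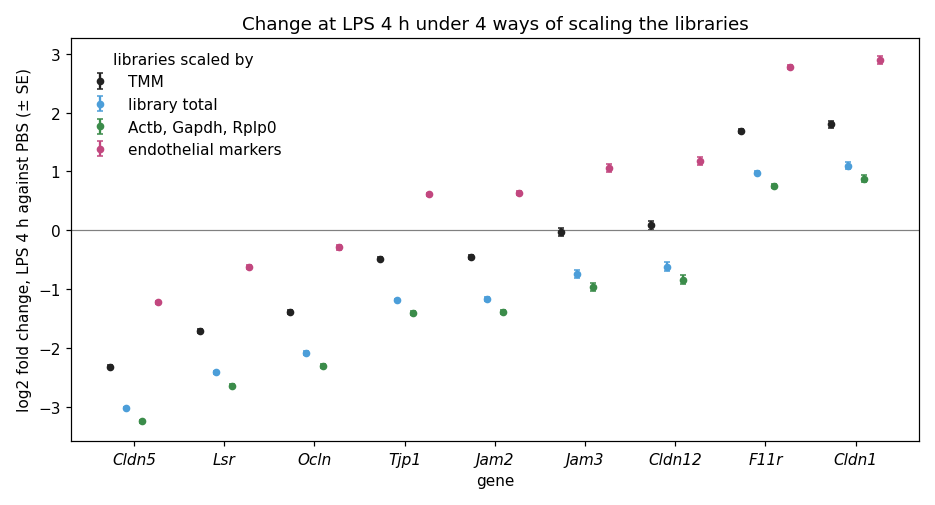
Log2 fold change at LPS 4 h against PBS (vertical axis, ± SE) for each gene under 4 ways of scaling the libraries. Points for Cldn5 stay below 0 and those for F11r and Cldn1 above 0 throughout, whereas Tjp1, Jam2, Jam3, and Cldn12 cross 0.

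At the level of transcripts, 26 transcripts of the members could be tested. Cldn5-201, the single transcript of Cldn5, was the 1 called at 15 min (1.09% of all 49421 transcripts tested, 0.186% lower) and at 30 min (1.64%, 0.2% lower). At 4 h 13 were called, 3 higher and 10 lower (18% of all transcripts, 10.5% higher and 7.53% lower). Some genes had 1 main form. Cldn1-201 held 97.2 to 99.4% of its gene's TPM in PBS, Jam3-201 95.7 to 99.2%, and Jam2-202 96.7 to 96.8%. F11r-201 (72.1 to 74.4% in PBS, 70.9 to 77.4% at 4 h) and F11r-203, a retained-intron form, rose by 1.64 (SE 0.0365) and 1.63 (SE 0.303). Ocln-202 and Ocln-201, which encode the same number of codons, fell by 1.59 (SE 0.0822) and 1.28 (SE 0.131), whereas the shorter Ocln-203 stood at -1.21 (SE 0.337, adjusted p 0.0813). For Tjp1 the longest form, Tjp1-202, was not called (-0.52), and Tjp1-201 (-0.94, adjusted p 0.0490) and the retained-intron Tjp1-206 (-1.84, adjusted p 0.0369) were close to the limit. Tjp1-207, annotated for nonsense-mediated decay, held 5.32 to 5.56% of the gene in PBS and 8.04 to 10.2% at 4 h without overlap. Cldn12-201 held between 44.4 and 100% from library to library, so the forms of Cldn12 were not resolved. Salmon's uncertainty in assigning reads to forms is not part of these errors.

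The rest of the junction was read from lists of 57 other genes, of which 41 could be tested. None was called at 15 or 30 min by edgeR beyond 1.5-fold, with 21 at each time by the test with no fold limit (38.6% and 36.9% of all genes), where DESeq2 with the limit called 0. At 4 h 13 of 41 were called, 8 higher and 5 lower (DESeq2 called 10, 5 each way), against 33% of all genes, and the median log2 fold change was -0.13 against -0.01 for all genes. The balance rested on the scaling: library total gave 1 higher and 20 lower, the reference genes 0 higher and 23 lower, and endothelial scaling 27 higher and 0 lower. Of all genes, library total called 10.0% higher and 44.9% lower, the reference genes 8.52% and 55.5%, and endothelial scaling 63.4% and 2.46%, so the balance of these genes moved with that of all genes.

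Among the 10 other claudins tested, 2 fell and none rose at 4 h (13.9% of all genes fell and 19.1% rose). Cldn11, the claudin of myelin, was at 7.71 ± 0.849 CPM against 17.2 ± 1.15 CPM (-1.16, SE 0.123, adjusted p 4.33e-05), and Cldn34c1 at 3.67 CPM against 8.23 CPM (-1.16, adjusted p 0.00115). Both were below 0 under every scaling but not called under endothelial scaling. Cldn3, a claudin often discussed for the brain barrier, was at 3.47 ± 0.311 CPM in PBS and 2.02 ± 0.873 CPM at 4 h (-0.78, SE 0.266, adjusted p 0.219). Of 24 annotated other claudins, 6 had no count in any library, among them Cldn16 and Cldn17.

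Of the 8 other membrane proteins, 3 rose and 1 fell at 4 h (19.1% and 13.9% of all genes). Cxadr, the coxsackievirus and adenovirus receptor, rose by 1.29 (SE 0.0675, adjusted p 3.05e-10) and was above 0 under every scaling, though at 0.36 with the reference genes it was not called. Esam, an endothelial adhesion molecule, went from 438 ± 1.16 to 728 ± 4.99 CPM (0.73, SE 0.0219), and Marveld2 from 12.1 to 21.0 CPM (0.80, SE 0.102). With the reference genes these stood at -0.19 and -0.13, so their direction depended on the scaling. Igsf5 (JAM4) fell by 1.44 (SE 0.167) and was below 0 under every scaling, but not called under the endothelial one.

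Of the 23 plaque proteins, 5 rose and 2 fell at 4 h (19.1% and 13.9% of all genes). Ybx3 (ZONAB, a transcription factor that binds ZO-1) rose by 1.34 (SE 0.0317, adjusted p 4.18e-17), Mpp5 (PALS1, of the polarity complex) by 1.05 (SE 0.0513), and Pard6b by 0.97 (SE 0.183). These were above 0 under every scaling, at 0.41, 0.12, and 0.04 with the reference genes, where none was called. Tjap1 (0.72) stood at -0.21 there, so its direction was not fixed. Amot, an angiomotin, fell by 1.12 (SE 0.0652) and was below 0 under every scaling (-0.03 under the endothelial one), and Afdn (afadin) fell by 0.89 (SE 0.0382), but stood at 0.20 under endothelial scaling. Cgnl1, the cingulin-like protein of endothelium, was not called (500 ± 6.25 against 391 ± 7.38 CPM, -0.36).

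**Figure D5:**
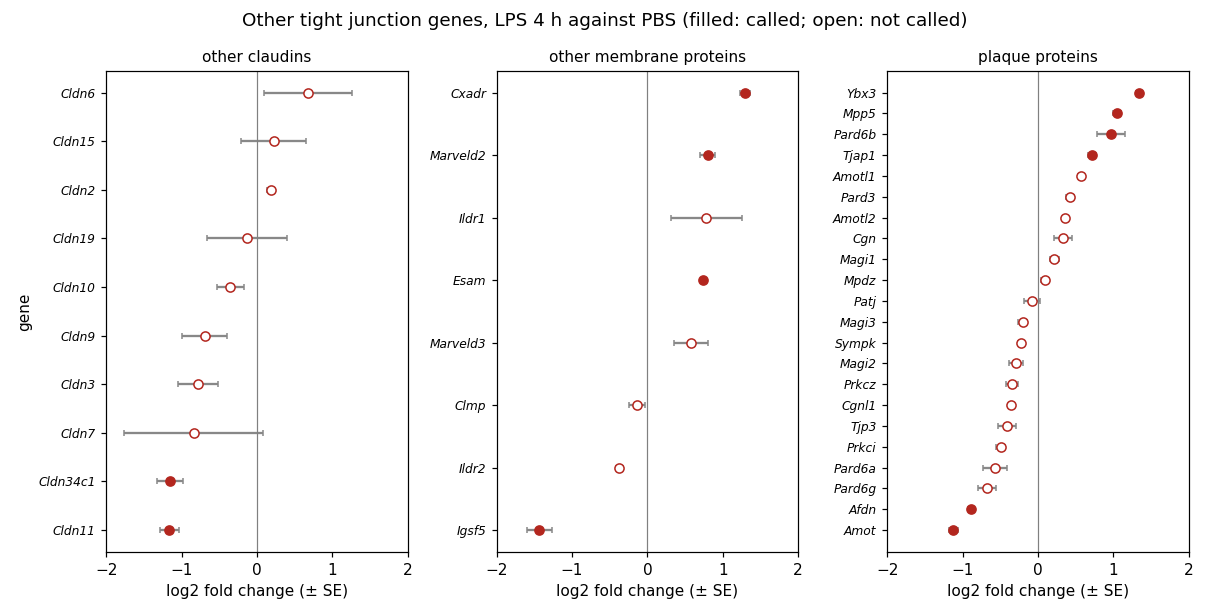
Log2 fold change at LPS 4 h against PBS (horizontal axes, ± SE, TMM scaling) of tested genes of the 3 lists, 1 gene per row, filled where called; 1 plaque gene is not drawn. The claudins have 2 called falls, the membrane proteins 3 rises and 1 fall, and the plaque proteins drawn 4 rises and 2 falls.

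Of 7 listed regulators of claudin and occludin transcription, 3 rose and 1 fell at 4 h, and none was called earlier by edgeR beyond 1.5-fold. The shares called over all genes were 4.25% at 15 min, 4.62% at 30 min, and 33% at 4 h (19.1% higher and 13.9% lower). Sox18, an endothelial transcription factor, went from 355, 365, and 364 CPM in PBS to 19.1, 16.6, and 17.1 CPM, a change of -4.36 (SE 0.0410, adjusted p 8.04e-28) that was called under every scaling. Cdh5, whose protein is known to raise Cldn5 transcription, rose by 1.96 (SE 0.0215), also under every scaling. Erg and Foxo1 rose by 0.92 (SE 0.0318) and 0.76 (SE 0.0535), but at -0.0045 and -0.16 with the reference genes their direction depended on the scaling. Snai1 (0.67, adjusted p 0.214), Snai2 (0.60, adjusted p 0.463), and Ctnnb1 (-0.18, adjusted p 1) were not called.

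Among 10 enzymes that act on junction proteins, 3 rose at 4 h, against 19.1% of all genes called higher and 33% called either way. Mmp3, a matrix protease, was at 0.0375, 0.0675, and 0.0763 CPM in PBS and at 51.6 ± 2.73 CPM at 4 h. Mmp9 rose from 1.43 ± 0.219 to 4.08 ± 0.975 CPM (adjusted p 0.00177) and the kinase Rock2 by 1.07 (SE 0.0369). Both were above 0 under every scaling, but not called under library total or the reference genes. Rhoa, Mylk, and Src were not called, with log2 fold changes between -0.11 and 0.12. Of 5 leukocyte integrin genes whose proteins bind JAMs, Itgal (2.99, SE 0.222), Itgam (2.51, SE 0.141), and Itgb2 (2.04, SE 0.129) rose, and all 3 were called under every scaling. Itga4 (-0.21) and Itgb1 (0.34) were not called.

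The genes most like a member over the 12 libraries were sought by Pearson's r of log2 CPM among 10892 genes with at least 10 CPM on average. As the 4 groups set most of this variation, r is only a description. For Cldn5 they included Eif4ebp2 (0.997) and Mpzl1 (0.997). For Cldn1 they were Gja1 (0.997), which encodes connexin 43 and is on the astrocyte marker list, Relb (0.997), an NF-kB subunit, and Hdc (0.997), the enzyme that makes histamine. Gja1 went from 74.6 CPM in PBS to 122 CPM at 30 min and 522 CPM at 4 h. For Ocln they were Slc9a3r2, Map4k2, and Fcgrt (0.999 each), and for Lsr Capn2, Acvrl1, and Gltp (0.999 each). Among the members, Ocln and Lsr had an r of 0.997, while Cldn5 had 0.986 with Tjp1, 0.908 with Ocln, and 0.905 with Lsr.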

How the data were processed

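Per the labels and the methods of the study, cDNA from total RNA was amplified with SMART-Seq v4, fragmented with Nextera XT, and sequenced as paired ends, without strand information. The authors ran Salmon 1.2.1 and deposited, for each transcript and library, an estimated count of fragments that is not normalized, and TPM, scaled for length to a constant sum. The deposited gene table holds a normalized signal, counts divided by the authors with DESeq2, on GRCm38.p6. It was used in limma alone; its columns were matched to libraries by the number in the sample's own files.

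Estimated counts of 139852 of 140948 transcripts were joined to GENCODE M21 (GRCm38), summed to 54119 genes, and rounded; those not joined held 0.482% to 0.850% of fragments. In edgeR 4.0.16 (R 4.3.3), filterByExpr kept 19150 genes, a single quasi-likelihood model with TMM factors took in all 12 libraries, and glmTreat tested against 0.58 on the log2 scale, with Benjamini-Hochberg adjustment over all genes and a threshold of 0.05. The SE is the log2 fold change divided by the root of F. Of 3 libraries a group, pairs had a mean chi-square of 2.58 to 7.56 per gene, against 1 for counting noise. None was thus treated as repeat sequencing of 1 library. Separate libraries made from 1 RNA pool can also exceed counting noise, so this value cannot tell them from separate pools of mice. Same-numbered libraries of different groups deviated together at r of -0.05 to 0.07 in 18 comparisons, so the number is no pairing. Tables and plots were made in Python with pandas and matplotlib.

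The members, lists, motifs, and tests were chosen with earlier results of these data known. The genes named are the 9 members, list genes called at 15 or 30 min and, at 4 h, the 5 largest rises and falls per list with at least 1 CPM on average, a few genes fixed by name (Cldn3, Esam, Cgnl1, Marveld2, Cldn11, the regulators), transcripts with at least 10% of a gene's TPM, and the 3 genes most like Cldn5, Cldn1, Ocln, and Lsr. Cldn2, Cldn34c1, Flt1, Pecam1, Rhoa, Mylk, Src, and the antisense genes were added after their values were seen. A few genes that this rule selects are not reported here. Alternatives were DESeq2 with the same limit, RLE factors, library total, reference genes, endothelial markers, no filter, no fold limit, a length offset, only the groups compared, a replicate block, limma with 1 or 10 added (on log2 TPM + 1 for transcripts), and leaving out each library.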

Additional observations from a re-analysis of the deposited data

Results flagged for a closer look

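For 5 of 9 members the effect against PBS differed between LPS 4 h and LPS 30 min, by edgeR's test of the 2 times against each other. This is the comparison of 4 h with 30 min given above, in which 28.9% of all genes were called (17% higher and 11.9% lower). The effect at 4 h minus that at 30 min was 1.33 for Cldn1, -1.42 for Cldn5, -1.41 for Ocln, 1.67 for F11r, and -1.80 for Lsr on the log2 scale. Under endothelial scaling the difference was -0.50 for both Cldn5 and Ocln and was not called (adjusted p 1). Groups of 3 libraries were not searched for outlying libraries.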

How the results depend on the processing

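Leaving out each library in turn left the counts of called members at 1 (15 min and 30 min against PBS), 5 (4 h against PBS), 0 (30 against 15 min), and 5 (4 h against 30 min). With every library kept, 4.25%, 4.62%, 33%, 4.76%, and 28.9% of all genes were called in these comparisons. On leaving out a library, the other tight junction genes called were 0, 0, and 12 to 13 against PBS, and member transcripts 1, 1, and 11 to 13. The shares of all transcripts with every library kept were 1.09%, 1.64%, and 18%. With no fold limit the called members were 5, 5, 4, and 9 at 15 min and 30 min against PBS, 30 against 15 min, and 4 h against 30 min. The shares of all genes were 38.6%, 36.9%, 37.4%, and 65.3%. The other genes so called were 21, 21, and 32 at the 3 times against PBS (38.6%, 36.9%, and 68.5% of all genes). Member transcripts so called were 3 at 15 min and 4 at 30 min, against 4673 and 4431 of all 49421 transcripts tested. Library total gave 8 members at 4 h against PBS (55% of all genes) and 8 against 30 min (46.6%), and 21 other genes at 4 h. Reference gene scaling gave 3 members at 30 min (24.2% of all genes), 9 at 4 h (64%), and 1 at 30 against 15 min (14.8%). It gave 1, 10, and 23 other genes at the 3 times against PBS (3.9%, 24.2%, and 64% of all genes). Endothelial scaling gave 0 members at 15 min (5.21% of all genes, Cldn5 at -0.62, adjusted p 0.267), and 1 and 27 other genes at 30 min and 4 h (5.91% and 65.9%). At 4 h the sign turned for Cldn12 with the reference genes (-0.84) and for Jam2 (0.64) and Jam3 (1.06) under endothelial scaling, each called there. The replicate block gave 1, 1, and 5 members and 13 other genes (4 h) against PBS, and called 792, 869, and 6277 of all 19150 genes there. It changed no call of a member. It gave 11 member transcripts at 4 h, against 8233 of all 49421 transcripts. Endothelial scaling also ended the calls of Ocln and Lsr at 4 h. Cldn1, Cldn12, and Jam3 rest on 353 to 1219 fragments a library, against 6233 to 72387 for Cldn5, and their SE are larger for it.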
